A study of Triticum aestivum with 18 samples.

Results

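The endosperm of germinating wheat grains imbibed in abscisic acid (ABA) was compared directly with the endosperm of grains imbibed in hydrogen peroxide (H2O2). The series held 6 groups of 3 arrays, and the contrast used the 6 of 18 arrays titled for these endosperms. ABA_endosperm came from bread wheat grains of a single Chinese cultivar held for 16 h in 100 mg/L ABA, H2O2_endosperm from grains held for 16 h in 100 µmol H2O2, and CK_endosperm from grains held for 16 h in pure water. CK_endosperm did not enter the main fit of this contrast, only some alternative fits. ABA_embryo, H2O2_embryo and CK_embryo were the embryos taken from the same kinds of grains. Total RNA was hybridized to Affymetrix Wheat Genome Arrays, and the labels call the 3 arrays of a group biological replicates. The study describes plant material that was treated separately for each replicate, and the p-values rest on the spread among 3 such arrays per group. All grains were taken when the radicle was just emerging. The values were MAS5 signals, which are relative intensities, and every difference below is log2 ABA minus log2 H2O2 after signals under 10 were set to 10. Of 61179 wheat probe sets, 47618 reached a signal of 20 on at least 3 of the 6 arrays and were tested with limma, and 13561 did not.

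ABA is the hormone that sets seed maturation, dormancy and tolerance of drying, and it acts against gibberellin during germination. H2O2 is a reactive oxygen species made by respiring seed tissues, and in many seeds a moderate dose promotes germination. A cereal endosperm consists of a dead, starch-filled storage tissue and a living outer layer, the aleurone. During germination the aleurone secretes amylases, proteases and cell wall enzymes into the starchy part under gibberellin, and ABA opposes this. Endosperm was dissected whole and its cell types were measured together, so fewer cells of a type and less RNA per cell cannot be told apart in these values.

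Before any gene was compared, the arrays themselves were set against each other. The geometric mean of 36 poly-A spike control probe sets, for RNAs added to each sample before labelling, lay between 983 and 995 on the ABA_endosperm arrays, between 4022 and 4115 on the H2O2_endosperm arrays and between 3881 and 3932 on the CK_endosperm arrays. For the 27 hybridization control probe sets, for material added later, it lay between 2335 and 2383 in ABA_endosperm, between 4298 and 6070 in H2O2_endosperm and between 4677 and 7757 in CK_endosperm. The controls were therefore dimmer in ABA_endosperm than in H2O2_endosperm on every array, while the median signal of the wheat probe sets was 59.0 to 70.9 in ABA_endosperm against 72.0 to 80.1 in H2O2_endosperm. Scaling each array to the poly-A controls moved the median difference of all probe sets up by 1.99 on the log2 scale, and scaling to the hybridization controls moved it up by 1.09. The median difference over all tested probe sets was -0.10 with the deposited scaling, and each result below is relative to that scaling unless another is named.

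**Figure D1:**
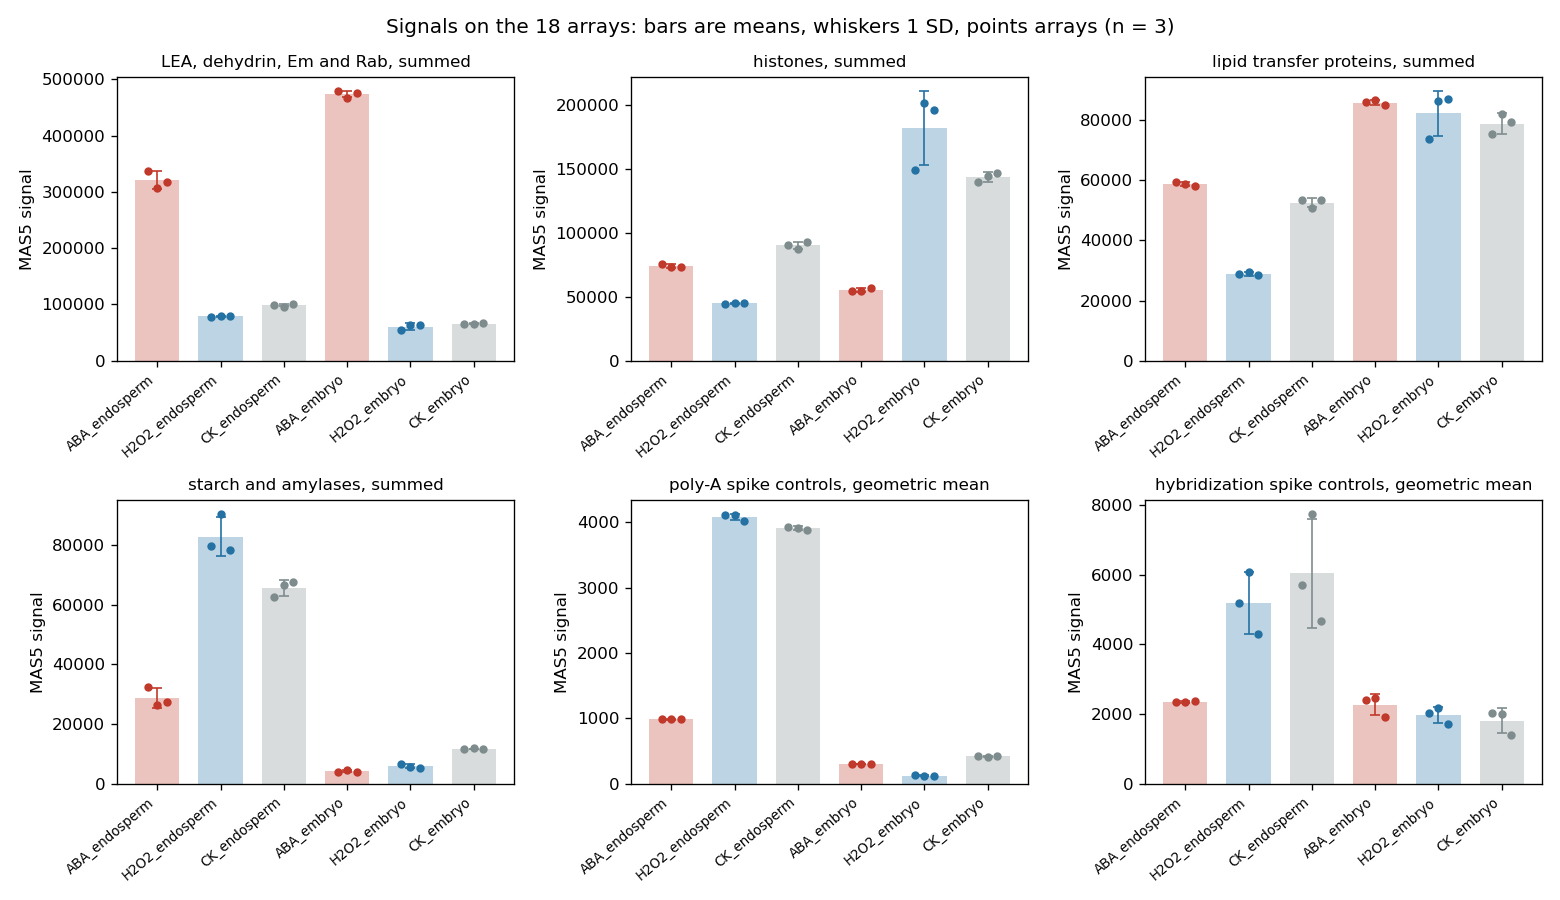
Summed MAS5 signal of 4 gene lists and geometric mean signal of the 2 kinds of spike control, on linear axes starting at 0, for the 6 groups. Bars are means, whiskers 1 SD and points the arrays (n = 3 per group). Late embryogenesis abundant transcripts are highest in the ABA groups, starch genes are lowest in ABA_endosperm among the endosperm groups, and the poly-A controls are below 1000 in ABA_endosperm and at 3881 or more in the other endosperm groups.

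The tissue labels were checked with marker genes. Transcripts of endosperm storage proteins summed to 80515 to 87080 in ABA_endosperm, 72978 to 73796 in H2O2_endosperm and 71379 to 74166 in CK_endosperm, against 23380 to 24712 in ABA_embryo, 5008 to 9881 in H2O2_embryo and 5797 to 6119 in CK_embryo. Most of that signal came from the 2 probe sets of BJ299669, and the gliadin and glutenin probe sets were dim. Of 8134 probe sets with at least 1000 on every CK_endosperm array, 4 stayed under 20 on every CK_embryo array. In the other direction, 8714 probe sets reached 1000 on every CK_embryo array and 0 of them stayed under 20 on every CK_endosperm array, so no probe set of that kind tells embryo RNA from endosperm RNA on these arrays. A weaker set of 26 probe sets, at least 1000 on every CK_embryo array and at least 5 times every CK_endosperm array, was chosen after the data were seen. Its geometric mean was 428 to 454 in ABA_endosperm, 332 to 362 in H2O2_endosperm and 345 to 360 in CK_endosperm, against 2110 to 2230 in ABA_embryo, 2061 to 2613 in H2O2_embryo and 2506 to 2533 in CK_embryo.

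At a Benjamini-Hochberg adjusted p under 0.05 in limma, 1834 probe sets (3.85% of those tested) were upregulated in ABA_endosperm relative to H2O2_endosperm and 2303 (4.84%) were downregulated, 8.69% in all. At least 2-fold changes were found for 634 (1.33%) and 587 (1.23%), and changes of at least 8-fold for 54 and 29. The signals of the 3 ABA arrays all lay above those of the 3 H2O2 arrays for 4671 probe sets (9.81%), and all below them for 7596 (16.0%). Of the 4137 called probe sets, 4127 had groups that did not overlap, so a lack of overlap adds little to a call. The split between directions followed the scaling. Upregulated probe sets were 44.3% of the calls as deposited, 46.2% after quantile normalization (1883 up and 2193 down) and 58.5% after scaling to the 75th percentile (2325 up and 1649 down). With the poly-A controls, 35404 were called up and 28 down, and 2008 of the 2303 downregulated probe sets were then called up. With the hybridization controls, 23544 were called up and 115 down, and 1116 of the 2303 were called up. All 1834 upregulated probe sets were also called up under both spike scalings. These scalings moved the median difference up by 1.99 and 1.09, so the result was nearly fixed in advance.

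**Figure D2:**
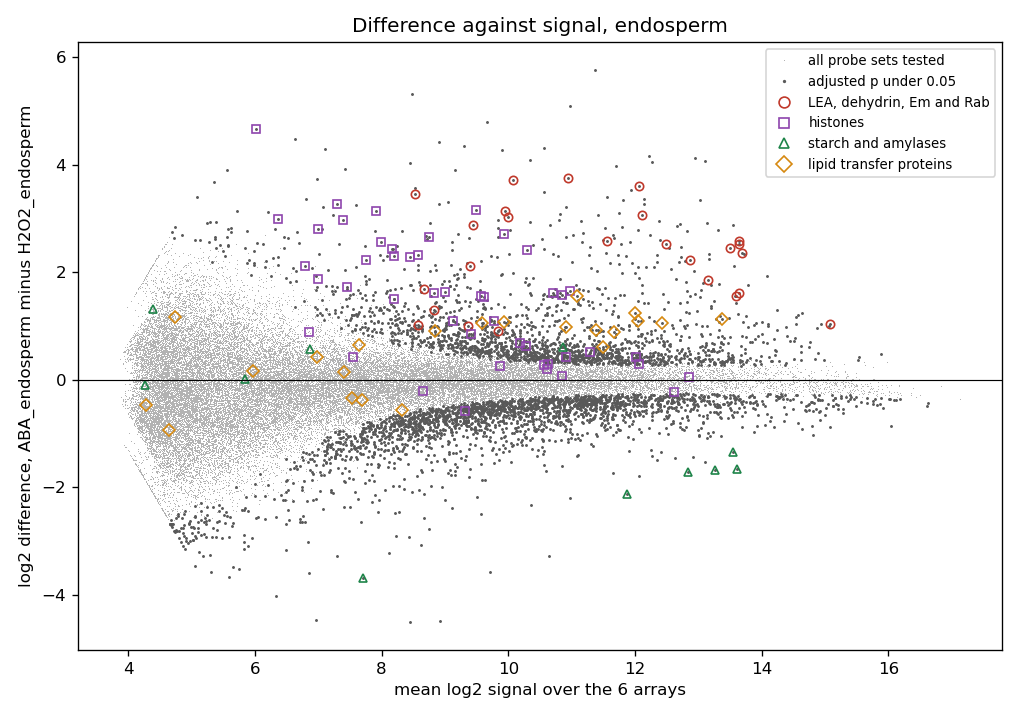
Log2 difference, ABA_endosperm minus H2O2_endosperm (y axis), against the mean log2 MAS5 signal of the 6 arrays (x axis), for the 47618 tested probe sets. Coloured points mark late embryogenesis abundant proteins, histones, starch enzymes and lipid transfer proteins, which leave the cloud in both directions, while the median of all probe sets is -0.10.

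The water control showed where each side stood. In 1231 of the 1834 upregulated probe sets (67.1%) the mean of CK_endosperm was nearer to H2O2_endosperm, and in 603 it was nearer to ABA_endosperm. In the downregulated set CK_endosperm was nearer to H2O2_endosperm in 1269 (55.1%) and nearer to ABA_endosperm in 1034 (44.9%). Over all tested probe sets the shares were 50.7% and 49.3%. The lean towards H2O2_endosperm was stronger among changes of at least 2-fold, at 478 of 634 upregulated (75.4%) and 362 of 587 downregulated (61.7%). CK_endosperm lay between the treated groups for 887 upregulated probe sets, below both for 675 and above both for 272.

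The strongest named change was BJ293360, which the study places in hormone metabolism. Its signal was 20027, 19083 and 19391 in ABA_endosperm, against 364, 331 and 387 in H2O2_endosperm and 431, 596 and 455 in CK_endosperm. That is a log2 difference of 5.76 ± 0.09 (SE, n = 3 per group), or 54.2-fold, with an adjusted p of 5.4e-13 in limma. The groups were far apart, and both groups without added ABA had nearly the same low signal. The embryo gave the same picture, with 24184, 24961 and 25400 in ABA_embryo against 148, 270 and 337 in H2O2_embryo. An unnamed probe set was similar. Ta.5915.3.S1_x_at (BJ292018) read 11590, 12124 and 11572 in ABA_endosperm, against 350, 310 and 379 in H2O2_endosperm, a 34.1-fold difference (log2 5.09 ± 0.09, adjusted p 3.2e-12). Another unnamed probe set, Ta.6081.1.S1_a_at (BE517410), was 2150, 2195 and 2414 in ABA_endosperm against 162, 83.4 and 13.6 in H2O2_endosperm. It was 39.6-fold higher, but its H2O2 arrays spread widely and its standard error on the log2 scale was 0.62.

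**Figure D3:**
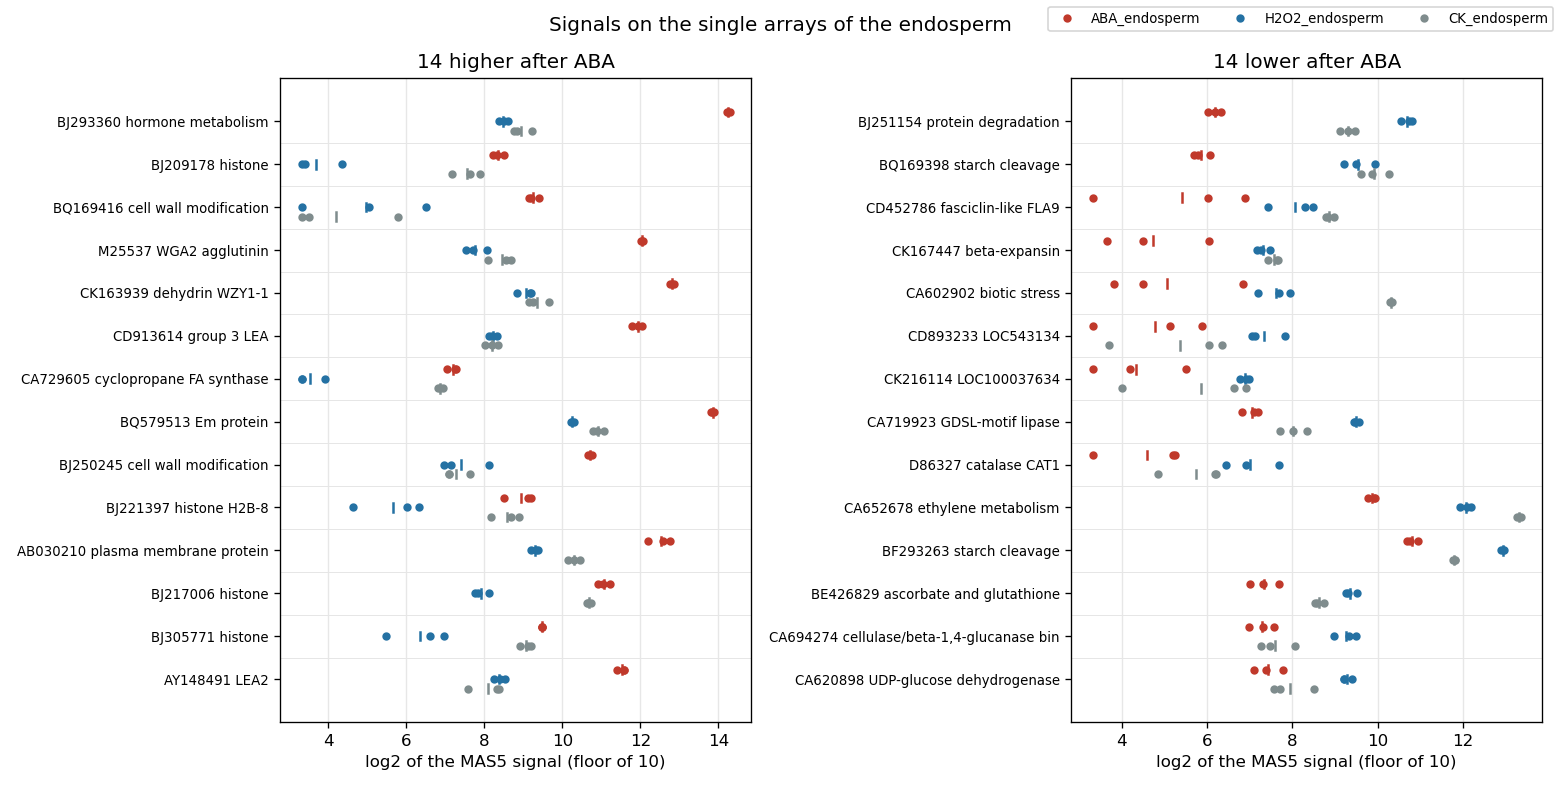
MAS5 signal on a log2 axis for the 14 named probe sets with the largest and the 14 with the smallest difference between ABA_endosperm and H2O2_endosperm. Points are single arrays (3 per group, CK_endosperm in grey) and ticks are group means on the log2 scale. The upregulated genes span 8.75- to 54.2-fold and the downregulated genes 3.61- to 22.9-fold. Probe sets whose ABA and H2O2 arrays overlapped were left out by the naming rule.

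Late embryogenesis abundant (LEA) proteins, small hydrophilic proteins that protect cells in drying seeds, moved as a block. All 25 probe sets of the list, which covers LEA proteins, dehydrins and ABA-inducible proteins, were upregulated, with a median difference of 2.45 beside -0.10 over all probe sets. The shares over all probe sets were 3.85% up and 4.84% down. The folds of the 25 ran between 1.86 and 13.4, with a median of 5.47. The list was taken from the study's own tables of changed genes on these samples, so its direction is not independent evidence. Its summed signal was 306206 to 337933 in ABA_endosperm, 78059 to 79684 in H2O2_endosperm and 96127 to 101002 in CK_endosperm.

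Within the list, the dehydrin WZY1-1 (CK163939) had the largest fold. It gave 6991, 7195 and 7453 in ABA_endosperm and 573, 460 and 591 in H2O2_endosperm (13.4-fold, log2 3.74 ± 0.10, adjusted p 9.5e-11). Group 3 LEA (CD913614) was 4248, 3545 and 3965 in ABA_endosperm against 320, 279 and 295 in H2O2_endosperm, or 13.1-fold (log2 3.72 ± 0.11, adjusted p 1.4e-10). In both genes CK_endosperm was in the range of H2O2_endosperm, at 808, 610 and 563 for WZY1-1 and 261, 327 and 295 for group 3 LEA. LEA2 (AY148491) was 3071, 2696 and 3054 in ABA_endosperm against 303, 338 and 368 in H2O2_endosperm, an 8.75-fold difference (adjusted p 8.6e-10). The Em proteins, group 1 LEA proteins made late in embryo development, formed a subgroup picked after the values were seen. All 6 of its probe sets were up by 5.11- to 12.2-fold. The largest fold among them, for BQ579513, came from 15294, 14764 and 14475 in ABA_endosperm, 1260, 1193 and 1211 in H2O2_endosperm and 1889, 1781 and 2152 in CK_endosperm (log2 3.60 ± 0.07, adjusted p 6.7e-12). The same transcript stood at 41571, 41668 and 39237 in ABA_embryo against 976, 2185 and 2065 in H2O2_embryo. The smallest change in the list belonged to CK199583, at 1216, 1361 and 1191 in ABA_endosperm against 824, 593 and 624 in H2O2_endosperm (1.86-fold, adjusted p 0.00077). CK_endosperm was above both treatments there, at 2679, 2397 and 2286, and the same held for all 3 probe sets of this accession and for no other in the list.

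Protein phosphatases 2C are negative regulators of the ABA receptor pathway, and their transcripts are known to be induced by the hormone. PP2C CK208784 was 5468, 5280 and 5335 in ABA_endosperm against 1533, 1562 and 1839 in H2O2_endosperm, a 3.27-fold difference (log2 1.71 ± 0.09, adjusted p 3.2e-08). PP2C BQ807036 was 5932, 5037 and 5905 in ABA_endosperm against 3101, 3352 and 3086 in H2O2_endosperm (1.77-fold, log2 0.82 ± 0.09, adjusted p 3.6e-05). Both phosphatases come from the study's tables of changed genes and are not independent evidence of direction. The 2 probe sets for ABA response element binding factors, the transcription factors at the end of this pathway, did not pass the test, with differences of 0.43 for AF519803 (adjusted p 0.33) and 0.17 for AF519804 (adjusted p 0.48). BJ291883, a cytochrome P450 that the study compared with Arabidopsis CYP707A1, an enzyme of ABA breakdown, was 910, 982 and 812 in ABA_endosperm and 417, 474 and 432 in H2O2_endosperm. This 2.04-fold difference (log2 1.03 ± 0.13, adjusted p 0.00018) placed ABA_endosperm above both other groups, as CK_endosperm read 299, 278 and 307.

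Several bright transcripts outside these families shared the direction. The 1-Cys peroxiredoxin PER1 (AY304482), a thiol peroxidase known from the aleurone and embryo of dormant cereal grains, gave 26011, 23602 and 24709 in ABA_endosperm, 3035, 3541 and 3319 in H2O2_endosperm and 1914, 1633 and 2128 in CK_endosperm (7.52-fold, log2 2.91 ± 0.08, adjusted p 9.5e-11). Its order was ABA, then H2O2, then water, with no overlap between groups. BJ296527, classed with biodegradation of xenobiotics, was 40176, 29723 and 32518 in ABA_endosperm against 8412, 9396 and 8883 in H2O2_endosperm on one probe set (3.81-fold, adjusted p 4.9e-08), and its second probe set was up 3.38-fold. The plasma membrane protein AB030210 was 6996, 6145 and 4706 in ABA_endosperm against 669, 641 and 583 in H2O2_endosperm (9.32-fold, log2 3.22 ± 0.13, adjusted p 2.1e-09). Transketolase, an enzyme of the pentose phosphate and Calvin cycles, was up 5.94-fold on BJ293768 and 5.41-fold on BJ299578, where ABA_endosperm read 3359, 3626 and 3609 and H2O2_endosperm 566, 726 and 676. In the Calvin cycle list that holds them, 3 of 79 tested were up and 6 down, beside 3.85% and 4.84% over all probe sets.

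Cold-regulated proteins, which partly overlap with dehydrins in function, split into both directions. Of 15 probe sets, 10 were up by 1.57- to 4.72-fold and 4 were down by 1.62- to 2.94-fold (list median 1.44). The shares over all probe sets were 3.85% and 4.84%. The study's tables of genes changed on these samples hold 14 of the 15, and the 1 other was not called. These directions are therefore not independent evidence. The largest increase was in AB097412, at 19011, 20146 and 20598 in ABA_endosperm against 4090, 4177 and 4381 in H2O2_endosperm (4.72-fold, log2 2.24 ± 0.07, adjusted p 3.6e-10). WCOR14a (AF207545), a chloroplast cold-regulated protein, was 1247, 1044 and 930 in ABA_endosperm against 332, 324 and 285 in H2O2_endosperm (log2 1.77 ± 0.15, adjusted p 3.4e-06). The downregulated members were all named WCOR, a subgroup picked after the values were seen. WCOR825 (U73215) was 529, 490 and 516 in ABA_endosperm, against 1388, 1691 and 1441 in H2O2_endosperm (2.94-fold lower, log2 -1.55 ± 0.12, adjusted p 1.2e-06). WCOR410c (BJ264076), an acidic dehydrin of cold-acclimated wheat, was 1446, 1857 and 1764 in ABA_endosperm against 3957, 3968 and 3968 in H2O2_endosperm (2.36-fold lower, adjusted p 2.3e-06). WCOR615 (U73217) was 1193, 1207 and 1163 in ABA_endosperm against 1958, 2011 and 1803 in H2O2_endosperm, and CK_endosperm was above both at 4905, 4860 and 4170. These 4 were also called lower after quantile normalization and with the 75th percentile, while the poly-A controls gave 4 called higher and the hybridization controls 1 called higher and 0 lower. In the embryo all 4 were likewise called lower with ABA.

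Transcripts known from the embryo and aleurone were higher in ABA_endosperm. Wheat germ agglutinin isolectin D (WGA2, M25537), a chitin-binding lectin of the embryo, was 4273, 4217 and 4162 in ABA_endosperm, against 269, 208 and 186 in H2O2_endosperm and 273, 374 and 413 in CK_endosperm (19.3-fold, log2 4.27 ± 0.13, adjusted p 2.4e-10). The oleosin-like CD921530, for the protein coat of oil bodies, was 34917, 27308 and 28978 in ABA_endosperm against 5557, 6544 and 5929 in H2O2_endosperm (5.04-fold, log2 2.33 ± 0.10, adjusted p 3.9e-09). The second oleosin-like transcript, CD920884, was 10043, 9719 and 9448 in ABA_endosperm against 3631, 3595 and 3489 in H2O2_endosperm (2.73-fold, log2 1.45 ± 0.07, adjusted p 2.1e-08). CK_endosperm was near H2O2_endosperm in each of these 3. The triacylglycerol synthesis list, which holds the oleosins, had 5 of 7 members up by 2.0- to 5.04-fold and 0 down, with summed signals of 40084 to 48230 in ABA_endosperm, 10791 to 12056 in H2O2_endosperm and 11852 to 12911 in CK_endosperm. The 3 embryo markers summed to 41244 to 49234 in ABA_endosperm, 9458 to 10347 in H2O2_endosperm and 10419 to 11134 in CK_endosperm. They were also called higher with ABA in the embryo, where they summed to 51446 to 58760 in ABA_embryo, 4022 to 5082 in H2O2_embryo and 3170 to 3349 in CK_embryo. Without added ABA their sum was thus higher in the endosperm than in the embryo, and it does not mark embryo RNA here. WGA2 by itself was higher in the embryo, at 1686, 1565 and 1485 in CK_embryo and 2256, 2126 and 2094 in H2O2_embryo. Of the 26 embryo-leaning probe sets, 8 were up and 1 was down, with a median difference of 0.10 and a mean of 0.37. Over all probe sets 3.85% were up and 4.84% down. The part of embryo RNA in the higher marker signals was not tested.

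Histone transcripts, whose synthesis is tied to DNA replication, were the second large upregulated family. Of 47 probe sets, 35 were up by 1.22- to 25.3-fold and 1 was down, with a median difference of 1.58. Over all probe sets 3.85% were up and 4.84% down. In the study's own tables of changed genes 37 of the 47 are listed, and they are not independent evidence of direction. Among the 10 outside those tables, 7 were up and 1 was down. The summed signal was 72926 to 75831 in ABA_endosperm, 43974 to 45343 in H2O2_endosperm and 87125 to 92778 in CK_endosperm, so ABA_endosperm was the group closer to water. CK_endosperm was nearer to ABA_endosperm in 44 of the 47 probe sets. Histone genes are many and near identical, and several probe sets of a class may read the same transcripts.

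BJ209178 had the largest histone fold, at 301, 319 and 366 in ABA_endosperm against 9.93, 20.4 and 10.6 in H2O2_endosperm (25.3-fold, log2 4.66 ± 0.52, adjusted p 6.4e-05). Its H2O2 arrays were at or near the floor of 10, and CK_endosperm read 199, 145 and 236. BJ217006 was brighter, at 1942, 2409 and 2102 in ABA_endosperm, 217, 229 and 279 in H2O2_endosperm and 1709, 1594 and 1629 in CK_endosperm (8.93-fold, log2 3.16 ± 0.14, adjusted p 4.9e-09). H2A BJ306445 was 2508, 2453 and 2519 in ABA_endosperm against 385, 387 and 377 in H2O2_endosperm (6.51-fold, log2 2.70 ± 0.10, adjusted p 9.6e-10). H2B-8 (BJ221397) was up 9.66-fold and BJ305771 8.80-fold. Not every histone followed. H2B-6 (CD906311), among the brightest, was 7018, 7773 and 7627 in ABA_endosperm and 7001, 7741 and 7029 in H2O2_endosperm (log2 0.04, adjusted p 0.82). One probe set of D38088 was lower, at 415, 629 and 542 in ABA_endosperm against 774, 810 and 751 in H2O2_endosperm (1.49-fold lower, adjusted p 0.034), a call that was lost with the 75th percentile scaling and turned under the spike controls, where all 47 histone probe sets were called higher. Both spike scalings also moved the median of all probe sets up.

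Lipid transfer proteins, small secreted proteins that bind lipids, were called in 1 direction only. Of 24 probe sets 22 were tested, 12 were up by 1.53- to 2.94-fold and 0 were down, with a median of 0.89. Over all probe sets 3.85% were up and 4.84% down. All 12 were among the 21 tested members that the study's tables do not list. The summed signal was 58102 to 59427 in ABA_endosperm, 28352 to 29481 in H2O2_endosperm and 50899 to 53607 in CK_endosperm, so by this sum ABA_endosperm was the group near water. By single probe sets, CK_endosperm was nearer to ABA_endosperm in 13 of the 22. BQ804735 was 15734, 16011 and 15007 in ABA_endosperm, 7255, 7346 and 6893 in H2O2_endosperm and 15755, 15131 and 14668 in CK_endosperm (2.18-fold, log2 1.12 ± 0.07, adjusted p 3e-07). CN012788, similar to Arabidopsis LTP4, had the largest fold of the list at 3385, 4179 and 3698 in ABA_endosperm against 1370, 1222 and 1228 in H2O2_endosperm (2.94-fold, log2 1.56 ± 0.10, adjusted p 2.3e-07). CD896324, similar to LTP3, was 6105, 6181 and 6625 in ABA_endosperm against 2726, 2793 and 2476 in H2O2_endosperm (2.37-fold). In all 3 genes the arrays of a group lay close together and the groups did not overlap, as held for nearly all called probe sets. BQ170864, from the mixed class of protease inhibitors, storage proteins and lipid transfer proteins, was 3177, 2568 and 2513 in ABA_endosperm, 397, 394 and 398 in H2O2_endosperm and 758, 946 and 977 in CK_endosperm (6.90-fold, log2 2.79 ± 0.11, adjusted p 2.6e-09).

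Phospholipid synthesis genes had 13 of 65 tested probe sets up and 6 down, with a median of 0.04. A subgroup picked after the values were seen, the cyclopropane fatty acid synthases, which add a methylene group across a double bond in phospholipid acyl chains, held 7 of the 13. It had 10 tested members of 13, of which 7 were up by 3.13- to 12.7-fold and 0 were down (median 2.10). The bright BJ270709 was at 4517, 5668 and 6519 in ABA_endosperm, 1666, 719 and 1122 in H2O2_endosperm and 2739, 3213 and 2342 in CK_endosperm (log2 2.32 ± 0.23, adjusted p 1.8e-05). CA720390 was 1106, 1273 and 1065 in ABA_endosperm against 276, 244 and 268 in H2O2_endosperm (4.36-fold, log2 2.12 ± 0.14, adjusted p 2.9e-07). The largest fold, 12.7 for CA729605, came from dim signals of 154, 152 and 133 in ABA_endosperm against 15.2, 6.63 and 7.74 in H2O2_endosperm, and its call was lost with the floor and filter set to 110. Elsewhere in the class, diacylglycerol kinase BT009326 was 384, 311 and 314 in ABA_endosperm against 639, 775 and 719 in H2O2_endosperm (2.12-fold lower, log2 -1.08 ± 0.15, adjusted p 0.00043). Among the fatty acid synthesis genes, 6 of 138 were up and 5 down, against 3.85% up and 4.84% down over all probe sets, and the 5 became 1 with the 75th percentile, 2 after quantile normalization and 8 with the floor and filter at 110. The long-chain acyl-CoA synthetase CK196203, which activates fatty acids, was up at 10077, 9126 and 9774 in ABA_endosperm against 2946, 3673 and 2970 in H2O2_endosperm (3.04-fold, log2 1.60 ± 0.09, adjusted p 1.2e-07).

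**Figure D4:**
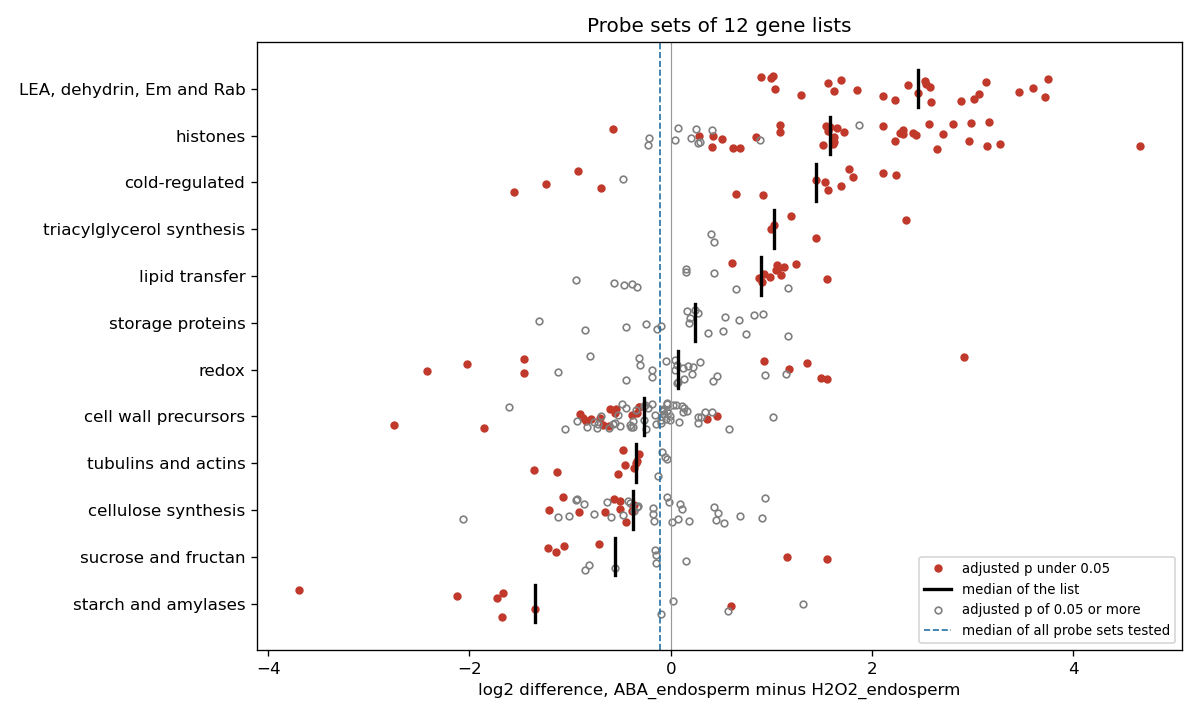
Log2 difference, ABA_endosperm minus H2O2_endosperm, of each tested probe set in 12 gene lists. Filled points passed an adjusted p of 0.05, black bars are list medians and the dashed blue line is the median of all 47618 probe sets, -0.10. Late embryogenesis abundant proteins, triacylglycerol synthesis genes and most histones lie to the higher side and most starch genes to the lower side.

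Starch degradation genes were lower in ABA_endosperm with the deposited scaling. Of 11 probe sets for starch metabolism and amylases, 6 were down by 2.54- to 12.9-fold and 1 was up, with a median of -1.35. Over all probe sets 4.84% were down and 3.85% up. The 6 were all annotated to starch cleavage, the hydrolysis of starch to sugars that feeds the seedling, and this subgroup was picked after the values were seen. These 6 come from the study's own tables, which were chosen on these samples and give no independent evidence of the direction, and of the 5 other members 1 was up and 0 were down. All 6 were lower with the deposited scaling, while with the hybridization controls 5 were called lower and with the poly-A controls 1 was called lower and 4 higher. The summed signal of the list was 26327 to 32423 in ABA_endosperm, 78453 to 90564 in H2O2_endosperm and 62730 to 67624 in CK_endosperm.

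BQ169398 had the largest fold of the class, at 51.6, 55.6 and 67.2 in ABA_endosperm, 980, 591 and 720 in H2O2_endosperm and 1225, 939 and 785 in CK_endosperm (12.9-fold lower, log2 -3.69 ± 0.26, adjusted p 7.5e-07). BF293263 was 1985, 1664 and 1730 in ABA_endosperm against 7632, 7990 and 7803 in H2O2_endosperm (4.37-fold lower, log2 -2.13 ± 0.09, adjusted p 2.1e-09). BF293263 separated all 3 groups, since CK_endosperm stood between them at 3596, 3475 and 3614. CA719001 was 5966, 5048 and 5566 in ABA_endosperm against 16987, 19256 and 16796 in H2O2_endosperm, with CK_endosperm at 16279, 15992 and 15718 (3.20-fold lower, log2 -1.68 ± 0.09, adjusted p 3.1e-08). CA720455 was 4130, 3742 and 4163 in ABA_endosperm against 12556, 14121 and 13103 in H2O2_endosperm, with CK_endosperm at 8230, 7034 and 8597 (log2 -1.72 ± 0.08, adjusted p 9.3e-09). CA644563 and AL820663, at log2 -1.67 ± 0.14 and -1.35 ± 0.09, completed the class. The upregulated member was AGP-S (AF244997), the small subunit of ADP-glucose pyrophosphorylase, which makes the precursor of starch. It was 2390, 2095 and 2389 in ABA_endosperm, 1533, 1553 and 1444 in H2O2_endosperm and 1223, 1381 and 1485 in CK_endosperm (1.52-fold, log2 0.60 ± 0.09, adjusted p 0.00085).

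Sucrose and fructan enzymes divided by gene. Of 13 tested, 2 were up and 4 were down (median -0.56), beside 3.85% and 4.84% over all probe sets. The study's tables of genes changed on these samples hold 11 of the 13, and of the 2 others 0 were up and 1 was down. Both upregulated members were sucrose-phosphate synthases, which make the direct precursor of sucrose. SPS2 (CD910522) was 3321, 1905 and 3012 in ABA_endosperm against 1134, 665 and 998 in H2O2_endosperm (2.94-fold, log2 1.55 ± 0.21, adjusted p 0.0003), and SPS5 (CD454434) was 1035, 999 and 1010 in ABA_endosperm against 362, 490 and 536 in H2O2_endosperm (2.22-fold). A different sucrose-phosphate synthase, BT009079, went the other way at 466, 339 and 288 in ABA_endosperm against 795, 721 and 851 in H2O2_endosperm (2.20-fold lower, adjusted p 0.00095). Sucrose:fructan 6-fructosyltransferase (AB029887), which builds branched fructans, was 489, 789 and 654 in ABA_endosperm against 1644, 1187 and 1640 in H2O2_endosperm, with CK_endosperm above both at 2960, 2806 and 2439 (2.33-fold lower, log2 -1.22 ± 0.17, adjusted p 0.00048). Neither gene overlapped between the treatments, as held for nearly all called probe sets. The fructan exohydrolase 1-FEH (AJ508387), which breaks fructans down, was lower as well, at 8721, 8037 and 7930 in ABA_endosperm against 13428, 14378 and 12707 in H2O2_endosperm (log2 -0.71 ± 0.08, adjusted p 5.3e-05). The 4 lower calls held with the deposited scaling and not with the spike controls, where 12 members were called higher and 0 lower (poly-A), or 6 higher and 0 lower (hybridization).

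The largest downregulation of a named probe set was in BJ251154, which the study classes with protein degradation. It was 65.5, 80.3 and 73.2 in ABA_endosperm, 1508, 1796 and 1699 in H2O2_endosperm and 711, 556 and 629 in CK_endosperm (22.9-fold lower, log2 -4.52 ± 0.17, adjusted p 1.4e-09). The 2 unnamed probe sets with the largest decreases had the same stem in their identifiers, so all 3 may read related transcripts. Ta.28316.3.S1_at (BJ252450) was 158, 58.8 and 115 in ABA_endosperm, 2474, 2437 and 1995 in H2O2_endosperm and 887, 1207 and 973 in CK_endosperm (22.4-fold lower). Ta.28316.1.S1_at (BJ230170) was 45.9, 41.7 and 9.94 in ABA_endosperm against 628, 511 and 637 in H2O2_endosperm, with CK_endosperm at 171, 268 and 245 (22.0-fold lower, adjusted p 7.8e-05). In each the order was H2O2, water, ABA. Among annotated proteases the changes were smaller, and all 6 come from the study's tables of genes changed on these samples. Of 6 tested, 2 were up and 4 down, beside 3.85% and 4.84% over all probe sets. The brightest, the serine protease CK208190, was 27223, 24483 and 24491 in ABA_endosperm against 36496, 40296 and 37715 in H2O2_endosperm (1.5-fold lower, adjusted p 0.00045). The cysteine protease AB109216 was up, at 273, 451 and 486 in ABA_endosperm against 128, 110 and 195 in H2O2_endosperm (2.80-fold, adjusted p 0.005).

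Cell wall genes changed in both directions, and the shares over all probe sets were 3.85% up and 4.84% down. In precursor synthesis, 16 of 73 tested probe sets were down and 2 up (median -0.27). In cellulose synthesis 11 of 43 were down and 0 up (median -0.38), and among tubulins and actins, the cytoskeleton that guides wall deposition, 9 of 13 were down and 0 up (median -0.34). These medians stand beside -0.10 over all probe sets, and the direction depended on the scaling, since the poly-A controls called 32 cellulose and 13 tubulin or actin probe sets higher and 0 cellulose probe sets lower, and the hybridization controls 17 and 11 higher. UDP-glucose dehydrogenase (UGD), which makes the sugar nucleotide for xylans and pectins, was a subgroup picked after the values were seen, with 9 of 12 down by 1.26- to 3.61-fold. With the poly-A controls 9 of these 12 were called higher and 0 lower, and with the hybridization controls 4 higher and 1 lower.

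The UGD probe set CA620898 was 168, 219 and 138 in ABA_endosperm, 674, 594 and 596 in H2O2_endosperm and 363, 191 and 211 in CK_endosperm (3.61-fold lower, log2 -1.85 ± 0.20, adjusted p 4.9e-05). The brighter CK154974 was 5128, 5444 and 5321 in ABA_endosperm against 9580, 9897 and 9699 in H2O2_endosperm (log2 -0.88 ± 0.07, adjusted p 2.8e-06). The mixed beta-glucan synthase-like BJ219357 was 713, 628 and 792 in ABA_endosperm against 1482, 1763 and 1668 in H2O2_endosperm (2.31-fold lower, adjusted p 1.7e-05), and alpha tubulin CA640220 was 659, 525 and 521 in ABA_endosperm against 1144, 1297 and 1278 in H2O2_endosperm (2.19-fold lower, adjusted p 5.9e-05). All 4 separated the groups without overlap, as nearly all called probe sets did. In the wall modification class, 6 of 113 were up and 12 down, beside 3.85% and 4.84% over all probe sets. BQ169416 was 682, 586 and 568 in ABA_endosperm against 32.8, 9.86 and 91.3 in H2O2_endosperm (19.6-fold, log2 4.30 ± 0.60, adjusted p 0.00041). BJ250245 was 1605, 1733 and 1665 in ABA_endosperm against 124, 276 and 141 in H2O2_endosperm (9.86-fold, log2 3.30 ± 0.24, adjusted p 9.1e-07), and in both CK_endosperm was low as well. In wall degradation, 7 of 92 were up and 16 down, beside the same shares over all probe sets. CD893894, from the class that cleaves mannan, xylan and arabinan, was 1160, 874 and 820 in ABA_endosperm against 145, 308 and 270 in H2O2_endosperm (4.10-fold, adjusted p 0.00013). CA694274, from the cellulase and beta-1,4-glucanase class, was 159, 190 and 126 in ABA_endosperm against 505, 643 and 721 in H2O2_endosperm, with CK_endosperm at 177, 266 and 153 (3.95-fold lower, adjusted p 4.7e-05).

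Expansins loosen cell walls during growth, and 3 of 54 tested were up and 5 down, beside 3.85% and 4.84% over all probe sets. CA637685, similar to Arabidopsis EXP11, was 950, 752 and 811 in ABA_endosperm, 344, 344 and 359 in H2O2_endosperm and 836, 833 and 774 in CK_endosperm (2.39-fold, log2 1.26 ± 0.14, adjusted p 5.6e-05). AY543538, the brightest changed member, was 10467, 11592 and 10701 in ABA_endosperm against 7111, 6800 and 7657 in H2O2_endosperm (1.52-fold, adjusted p 0.00023). CK167447 was lower, on its brighter probe set at 49.8, 121 and 82.5 in ABA_endosperm against 428, 393 and 412 in H2O2_endosperm (5.19-fold lower, log2 -2.37 ± 0.32, adjusted p 0.00034). Expansin A1 (AY485121), a gene also taken for qRT-PCR, was 1315, 985 and 1260 in ABA_endosperm and 1226, 1325 and 1114 in H2O2_endosperm, and the groups overlapped (log2 -0.05, adjusted p 0.88).

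Redox and detoxification genes showed no common direction, with 6 of 33 tested up and 4 down (median 0.07), beside 3.85% and 4.84% over all probe sets. The study's tables of changed genes hold 23 of the 33, and of the 10 others 0 were up and 1 was down. Beside the peroxiredoxin, lactoylglutathione lyase (BQ806459), which detoxifies methylglyoxal, was 3029, 2572 and 2820 in ABA_endosperm, 796, 947 and 1158 in H2O2_endosperm and 370, 427 and 339 in CK_endosperm (2.93-fold, log2 1.55 ± 0.13, adjusted p 3.3e-06). It was one of the genes in which both treatments stood above water. The oxalate oxidase CA611128, an enzyme that releases H2O2, was 831, 836 and 692 in ABA_endosperm against 314, 278 and 329 in H2O2_endosperm (2.56-fold, adjusted p 4.9e-05), while germin M21962 was 169, 174 and 217 in ABA_endosperm against 437, 582 and 515 in H2O2_endosperm (2.74-fold lower, adjusted p 0.00032). Alternative oxidase (AB078883), a mitochondrial bypass of the respiratory chain, was 670, 548 and 616 in ABA_endosperm against 185, 313 and 337 in H2O2_endosperm (log2 1.18 ± 0.22, adjusted p 0.0035). These oxidases thus moved in both directions. BE426829, of the ascorbate and glutathione class, was lower at 159, 129 and 207 in ABA_endosperm against 633, 731 and 617 in H2O2_endosperm (4.07-fold, adjusted p 2.4e-05). Catalase CAT1 (D86327), which breaks down H2O2, was dim, at 3.8, 36.5 and 38.1 in ABA_endosperm against 120, 206 and 87.3 in H2O2_endosperm. Its 5.37-fold decrease had an adjusted p of 0.04, and the call was lost when single arrays were left out.

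Among defence proteins 7 of 20 tested were up and 3 down (median 0.28), beside 3.85% and 4.84% over all probe sets. The study's tables of changed genes hold 15 of the 20, and of the 5 others 0 were up and 0 down. Chitinase II (AF112963) was 650, 495 and 501 in ABA_endosperm against 231, 260 and 334 in H2O2_endosperm (2.0-fold, adjusted p 0.0041), and lipoxygenase 1 (BT008992) was up 1.61-fold. Beta-glucanase Z22873 was lower at 4424, 4922 and 4782 in ABA_endosperm against 8265, 8208 and 8182 in H2O2_endosperm, with CK_endosperm higher still at 11004, 10312 and 10215 (1.75-fold lower, adjusted p 1e-05). Heat shock protein 70 (CA699307), a chaperone, was the one called member of 5 in its list. It was 129, 113 and 131 in ABA_endosperm, 391, 458 and 428 in H2O2_endosperm and 114, 124 and 157 in CK_endosperm (3.43-fold lower, log2 -1.78 ± 0.22, adjusted p 0.00013), so the H2O2 arrays alone stood apart. CA652678, placed in ethylene synthesis and degradation, was 974, 973 and 870 in ABA_endosperm, 4641, 4410 and 3881 in H2O2_endosperm and 10202, 9918 and 10468 in CK_endosperm (4.58-fold lower, log2 -2.20 ± 0.10, adjusted p 5.3e-09). CA602902, classed with biotic stress, had the same order at much lower signal, with 114, 22.6 and 14.1 in ABA_endosperm against 248, 205 and 146 in H2O2_endosperm and 1259, 1272 and 1299 in CK_endosperm. Water was the highest group for both genes and ABA the lowest. The aquaporin BJ230034, a water channel, was 4713, 4810 and 4666 in ABA_endosperm against 12682, 13228 and 12350 in H2O2_endosperm (2.70-fold lower, log2 -1.43 ± 0.07, adjusted p 2.1e-08).

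No storage protein transcript passed the test. In limma 0 of 19 tested were called in either direction (median 0.24), and 2 had an unadjusted p under 0.05. BJ299669 was 31556, 33283 and 34976 in ABA_endosperm and 30250, 28713 and 30096 in H2O2_endosperm (log2 0.16 ± 0.08, adjusted p 0.27). Beside the 8.69% called over all probe sets, 0 of 160 were up and 5 down in the photosynthetic light reactions, 0 of 21 up and 3 down in photorespiration, 5 of 92 up and 4 down in sterol and sphingolipid metabolism, and 6 of 94 up and 7 down among lipases. Transcription factors had 3 of 10 up and 0 down, a NAC factor (BJ286857, 1.91-fold), an AP2 factor (CA639840, 1.81-fold) and TaMYB1 (CA721033, log2 0.50). All 10 tested factors come from the study's tables of changed genes. Of the 135 probe sets on the study's list of key endosperm genes, which were chosen on these samples, 24 were up and 30 down (median -0.21).

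The same contrast in the embryo was set beside that in the endosperm. H2O2_embryo replicate 1 stood apart from its group, and embryo values are given with and without it. In the embryo, 2.18% of tested probe sets were up and 1.87% down with ABA, or 9.14% and 11% without that array. Of the 1834 upregulated probe sets, 597 were called in the same direction in the embryo and 115 in the opposite one, or 981 and 347 without that array. Of the 2303 downregulated, 230 and 37 were so called, or 876 and 190 without it. The difference between tissues itself, tested as an interaction over 12 arrays, passed for 686 probe sets in the positive direction (1.23%) and 805 in the negative (1.45%). Without H2O2_embryo replicate 1 it passed for 2418 (4.48%) and 2650 (4.91%).

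Histones went opposite ways in the tissues. In the embryo 0 of 47 were up and 34 down with ABA (1 up and 45 down without replicate 1), and the interaction was called for 36, all more positive in endosperm (46 positive and 1 negative without replicate 1). Their summed signal was 54385 to 57136 in ABA_embryo, 148908 to 201462 in H2O2_embryo and 139507 to 146414 in CK_embryo. BJ217006 illustrates it, at 636, 692 and 692 in ABA_embryo against 7563, 8707 and 9019 in H2O2_embryo, an interaction of 6.80 (adjusted p 4.5e-10). Lipid transfer proteins had 0 called either way in the embryo (3 up and 2 down without replicate 1) and 5 positive interactions (10 without it). LEA proteins shared their direction, with 23 of 25 up in the embryo and 25 without replicate 1, but the size differed between tissues, with 7 negative interactions and 0 positive (15 negative and 1 positive without replicate 1). The starch cleavage class had 0 of 6 called in the embryo and 5 lower without replicate 1, at far lower signals. Expansin AY543538 was 622, 591 and 465 in ABA_embryo against 1538, 1421 and 1531 in H2O2_embryo, opposite to its direction in the endosperm (interaction 2.03, adjusted p 1.4e-05).

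**Figure D5:**
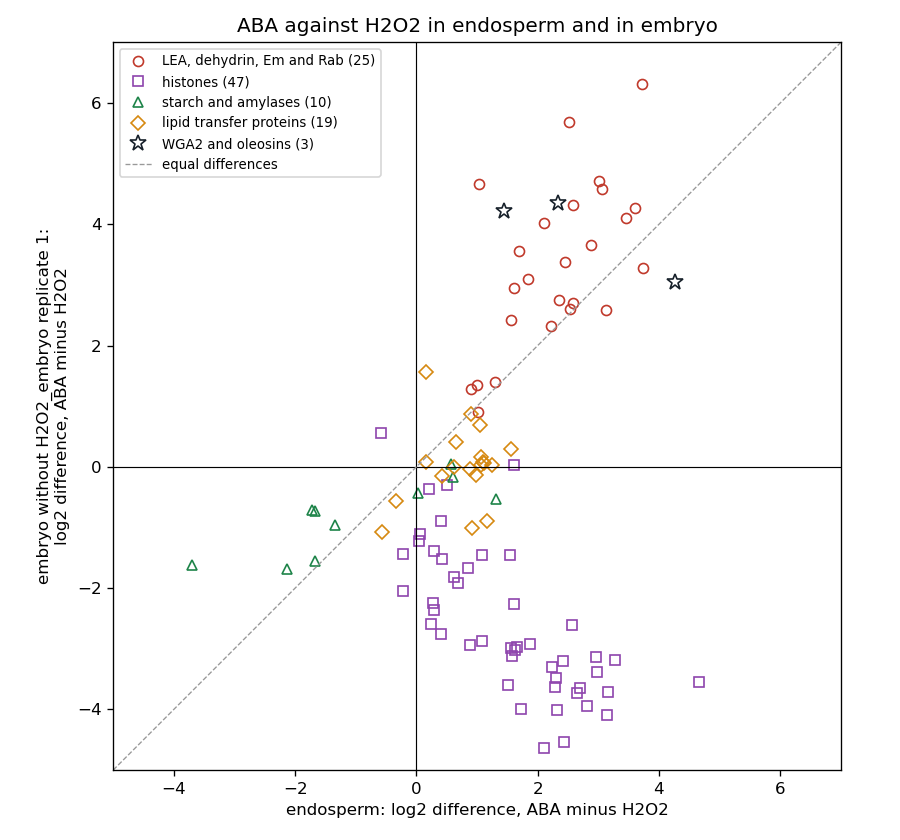
Log2 difference, ABA minus H2O2, in the endosperm (x axis) and in the embryo without H2O2_embryo replicate 1 (y axis), for probe sets of 5 gene lists. The dashed line marks equal differences. Late embryogenesis abundant proteins lie in the upper right, and most histones in the lower right with positive endosperm and negative embryo differences. The 6 starch cleavage probe sets lie in the lower left, but not all other starch genes do.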

How the data were processed

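The deposited values were MAS5 signal intensities that the authors computed with Affymetrix Microarray Suite, 1 value per probe set and array, here read from the series table. The study's methods describe their target scaling, but part of that text names a different array and number of probe sets than those used here. The deposited scale was therefore used as it stands, and the 111 control probe sets were left out of all tests. Signals under 10 were set to 10 and log2 transformed. Probe sets with a signal of at least 20 on at least 3 of the 6 arrays were fitted with limma 3.58.1 in R 4.3.3 (lmFit, then eBayes with a trend), with Benjamini-Hochberg adjustment over all 47618. Errors are standard errors of that fit. The study's permutation-based calling was not repeated. The tissue difference was an interaction over 12 arrays. The scripts were tested on simulated data. Annotation came from the platform table, the RefSeq gene table and the study's supplementary tables, which left all but 2406 tested probe sets without a name. Accessions identify the source sequence of a probe set. Several probe sets of a gene, or of its copies in the wheat subgenomes, are not independent.

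Members, lists and subgroups were chosen with earlier results of these data known. Genes named were the 14 largest and 14 smallest differences among named probe sets (adjusted p under 0.05, groups not overlapping, higher group's mean at least 100, 1 per accession), the accessions discussed in the study or chosen for qRT-PCR that matched a probe set, the 2 highest and 2 lowest called members of each list, and the 2 largest and 2 smallest unnamed probe sets. Others were named after their values were seen: the WCOR, Em, UGD, cyclopropane, starch cleavage and oxalate oxidase members not covered by that rule, ABA response element binding factors, H2A BJ306445, H2B-6, BQ804735, WCOR14a, 1-FEH, alternative oxidase and TaMYB1. Alternatives were the floor, filter, threshold, fold, normalization, trend, robust fit, sample set, replicate block, single arrays left out and, added after seeing the data, scaling to the spike controls.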

Additional observations from a re-analysis of the deposited data

Results flagged for a closer look

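The effect of ABA against H2O2 differed between endosperm and embryo, by the interaction test in limma over 12 arrays, for 34 of the 132 tested probe sets named under the naming rule. Over all probe sets 1.23% were positive and 1.45% negative. Many named probe sets were picked for extreme differences on the same endosperm arrays, so their share cannot be set against these. All values are log2, endosperm difference minus embryo difference. Among the 34, the interaction was positive in 15 and negative in 19. All 34 kept their sign and an adjusted p under 0.05 without H2O2_embryo replicate 1. The positive ones did not turn under the spike scalings, whereas the poly-A controls turned 15 of the negative ones positive and the hybridization controls turned 1. These scalings moved the median interaction of all probe sets up by 2.91 and 1.19, so positive values could hardly turn.

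Positive values were found for the histones BJ209178 (8.16), BJ217006 (6.80), BJ305771 (6.32) and H2B-8 BJ221397 (6.25). They followed for the cyclopropane fatty acid synthase CA729605 (4.20), the acyl-CoA reductase-like BJ242205 (3.79), both probe sets of ADP-glucose pyrophosphatase CK215324 (3.45 and 3.26) and expansin AY543538 (2.03). Smaller positive values belonged to BQ170864 (1.63), chitinase II AF112963 (1.37), the UDP-xylose synthase CA715084 (1.29), WGA2 M25537 (1.25), WCOR410c BJ264076 (1.0) and AGP-S AF244997 (0.77).

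ADP-glucose pyrophosphatase (CK215324), which hydrolyses the starch precursor, was higher with ABA in the endosperm, at 787, 1018 and 1146 in ABA_endosperm against 446, 261 and 360 in H2O2_endosperm. It was lower with ABA in the embryo, at 277, 274 and 293 in ABA_embryo against 673, 1182 and 1127 in H2O2_embryo.

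The most negative values were those of BJ299669 (-6.75 and -5.51), the storage protein. It was 7472, 8103 and 8716 in ABA_embryo against 71, 86.2 and 49.6 in H2O2_embryo, whereas the endosperm arrays of both treatments were between 28713 and 47915. BJ296527 followed (-3.77 and -3.26), then transketolase BJ293768 (-3.63) and BJ299578 (-2.80), cold regulated AB097412 (-2.85 and -2.62), and the acidic ribosomal proteins BQ579004 (-2.83) and BJ297034 (-2.30). The oleosin-like transcripts CD920884 (-2.54) and CD921530 (-1.87), HSP70 CA699307 (-2.19), PP2C BQ807036 (-2.13) and lactoylglutathione lyase BQ806459 (-1.94) were also negative. PER1 AY304482 (-1.48), beta-glucanase Z22873 (-1.48), CA652678 (-1.32) and the cystatin AL829976 (-1.09) completed the set. Most of these genes were higher with ABA in both tissues and more so in the embryo, but HSP70, CA652678 and beta-glucanase Z22873 were lower with ABA in the endosperm.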

How the results depend on the processing

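The 4137 calls between ABA_endosperm and H2O2_endosperm became 1206 without the trend (619 higher and 587 lower), 2177 in the fit of all 18 arrays, 2317 at an adjusted p under 0.01, 1221 with a fold of at least 2, 35432 with the poly-A controls and 23659 with the hybridization controls. Leaving out single arrays gave 2861 to 4156. Replicates with the same number did not deviate together (correlations of -0.02, -0.01 and 0.00), and the replicate block gave 3321 calls.

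The 1491 tissue differences became 2657 with the floor and filter at 110, 2557 in the fit of all 18 arrays, 42890 with the poly-A controls and 16391 with the hybridization controls. Leaving out single arrays gave 901 to 5068, the lowest without ABA_embryo replicate 1 and the highest without H2O2_embryo replicate 1. The count also moved by over 1.5 times without ABA_endosperm replicate 2 (990) or 3 (927), H2O2_endosperm replicate 1 (961), or ABA_embryo replicate 2 (943) or 3 (916).

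Upregulated cell wall precursor members were 1 after quantile normalization, against 2. Downregulated cellulose members were 4 with the 75th percentile, against 11. Downregulated histones were 2 with the 110 setting, 2 after quantile normalization and 0 with the 75th percentile, against 1. Upregulated storage proteins were 1, 2 and 1 in these 3 settings, against 0. In the settings run for single genes other than the spike-control scalings, signs turned among uncalled probe sets of the study's qRT-PCR genes: expansin A1 AY485121 (0.024 with the 75th percentile, and -0.13 to 0.079 without single arrays), phosphomannomutase CK198230 (-0.37 to 0.12 without single arrays) and expansin B2 AY543540 (-0.28 to 1.32 on one probe set and -0.023 to 0.87 on the other, without single arrays). The causes were not tested.

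Of 123 called named probe sets, 92 kept the call in every setting that gave a value, and 31 lost it at least once. The settings were a floor of 1, the 110 setting, quantile normalization, the 75th percentile, the replicate block, the fit of all arrays but H2O2_embryo replicate 1 and each left-out endosperm array. A missing value was not counted as a loss, and 117 of the 123 had a value under the 110 setting. Of the 60 called lower, 18 stayed below 0 with the poly-A controls, 5 of them called, and 36 with the hybridization controls, 15 of them called. The number of arrays limits the precision, and dim probe sets are the least certain. FLA9 CD452786, CK167447 on its dimmer probe set, CA602902, CD893233, CK216114, CAT1 and phosphomannomutase CK198230 were among those that lost their calls when single arrays were left out.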

Other observations

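Some called genes outside the lists described at length were bright. The multidomain cystatin AL829976, an inhibitor of cysteine proteases, was 18839, 17650 and 18349 in ABA_endosperm, 10737, 11851 and 11251 in H2O2_endosperm and 7907, 7494 and 7277 in CK_endosperm (1.62-fold, log2 0.70 ± 0.08, adjusted p 4.4e-05). The phospholipase D-like CD877763, which releases phosphatidic acid from phospholipids, was 6886, 7160 and 6818 in ABA_endosperm against 4434, 4535 and 4399 in H2O2_endosperm (1.56-fold, adjusted p 5.9e-05). The acidic ribosomal protein BQ579004 was 31860, 29183 and 28843 in ABA_endosperm against 18010, 17585 and 18849 in H2O2_endosperm (1.65-fold, adjusted p 4.6e-05). Of 13 ribosomal and translation probe sets, 2 were up and 3 down, beside 3.85% and 4.84% over all probe sets. The Rubisco small subunit BJ266715, the carbon-fixing enzyme of chloroplasts, was lower at 612, 594 and 617 in ABA_endosperm against 1512, 1566 and 1550 in H2O2_endosperm, with CK_endosperm at 1848, 2004 and 1921 (2.54-fold lower, log2 -1.34 ± 0.10, adjusted p 1.2e-06).

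Some genes that the study discussed or took for qRT-PCR did not pass the test, among them BJ299669 and expansin A1, given above. CA623473, CD491559, CA498269, BJ249131, Y09916, BQ170546 and CA645154 matched 0 probe sets in the annotation used, so they were not looked at. The MPK6-like AY173962 was -0.26 and -0.31 on its 2 probe sets (adjusted p 0.35 and 0.053), and glutathione synthetase CA607898 was 449, 482 and 424 in ABA_endosperm against 524, 587 and 754 in H2O2_endosperm (log2 -0.45, adjusted p 0.12). Expansin B2 AY543540 was dim on all 6 arrays. Phosphomannomutase CK198230 was called on one of its 2 probe sets (1.37-fold higher, adjusted p 0.029), a call lost when single arrays were left out (adjusted p 0.094 to 0.12 in the fits that lost it), and not on the other (log2 -0.16, adjusted p 0.85).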
